A study of Aspergillus luchuensis with 9 samples.

Results

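GIT1_1 (locus tag AKAW2_31605A) is one of 12941 genes in the expression table deposited for Aspergillus luchuensis mut. kawachii, a white koji mould used to make shochu. It was picked by its identifier, and it was picked with its level in the 3 strains already known. Its own differences between strains are therefore given as a description with no p-value, and tests are kept for its neighbours and for other genes. The table lists it on the minus strand of chromosome 3, from 4756992 to 4758288, a span of 1297 bases. The symbol comes from RefSeq's gene table, matched by locus tag. The exon structure was not used here.

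The gene is named after budding yeast Git1, a plasma membrane permease of the major facilitator superfamily. In yeast, phospholipases B strip both fatty acids from phosphatidylinositol outside the cell, and Git1 takes up the glycerophosphoinositol that is left. It can also carry glycerophosphocholine. The cell then cleaves these compounds and uses their phosphate and inositol, and yeast makes more Git1 when phosphate or inositol is short. The role is known from yeast; what the mould's protein carries was not measured here.

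The data are poly(A)-enriched, stranded RNA-seq libraries of 3 strains with 3 libraries each. All carry the strain label mut. kawachii. One is a control, one lacks hepA (ΔhepA) and one lacks laeA (ΔlaeA). HepA is the Aspergillus relative of heterochromatin protein 1, which binds methylated histone H3, while LaeA, a nuclear protein, regulates development and secondary metabolism. The labels give no other alleles, no culture age or medium and no phosphate supply, and they do not say whether replicates were separate cultures. P-values therefore measure the spread between these libraries, which may be technical. No gene in the table has the symbol hepA or laeA, so the deletions themselves were not checked here.

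Values are FPKM, fragment counts divided by transcript length and by each library's total, so levels of different genes are on 1 scale per length. Read totals were not used here, but the smallest steps among low values show depth. For genes with a transcript length near the span of GIT1_1, 1 fragment was worth 0.20 to 0.25 FPKM in 7 libraries. It was worth 0.32 in ΔlaeA replicate 2 and 0.43 in ΔlaeA replicate 3. Depth relative to control replicate 3 was thus 0.656 and 0.488 in those libraries, and 0.84 to 1.05 in the others. On the first principal component 3 libraries lay apart, namely replicate 2 of ΔhepA and replicates 2 and 3 of ΔlaeA (28.8, 53.6 and 72.8 against -46.4 to -9.8 in the other 6; 39.1% of the variance). The share of the FPKM sum from mitochondrially encoded genes was 2.85%, 3.04% and 7.0% in these 3 libraries and 1.09% to 1.66% in the others.

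GIT1_1 was high in the control strain and low in both deletion strains. It stood at 222, 77.9 and 269 FPKM in control replicates 1 to 3. In ΔhepA it stood at 29.4, 23.4 and 24.2 FPKM, and in ΔlaeA at 29.6, 17.2 and 38.1 FPKM. Each of the 6 deletion libraries lay below each control. The lowest control was 2.65 times the highest ΔhepA library and 2.04 times the highest ΔlaeA library. Fewer hyphae with the transcript and less of it per hypha cannot be told apart in such bulk samples.

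The strain means were 190 ± 99.5 FPKM in the control, 25.7 ± 3.29 in ΔhepA and 28.3 ± 10.5 in ΔlaeA (SD, n = 3 each). The control mean was 7.39 times that of ΔhepA and 6.70 times that of ΔlaeA. On the log2(FPKM + 1) scale the difference from the control was -2.66 ± 0.455 (SE) in ΔhepA and -2.59 ± 0.455 in ΔlaeA. Both comparisons use the same 3 controls. The ΔlaeA and ΔhepA libraries overlapped, and their difference was 0.07 ± 0.455 on the log2 scale. The order of the strains was thus control first, with no separation of ΔlaeA from ΔhepA beyond their spread.

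The control was also the most uneven strain. Its highest library was 3.45 times its lowest, replicate 2, against 1.26 times among the ΔhepA libraries and 2.22 times among the ΔlaeA libraries. Without control replicate 2 the log2 difference was -3.21 in ΔhepA and -3.14 in ΔlaeA. Without control replicate 3 it was -2.32 and -2.25. The 3 libraries that lay apart did not carry the low values: ΔhepA replicates 1 and 3 and ΔlaeA replicate 1 alone gave log2 differences of -2.60 and -2.46.

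**Figure D1:**
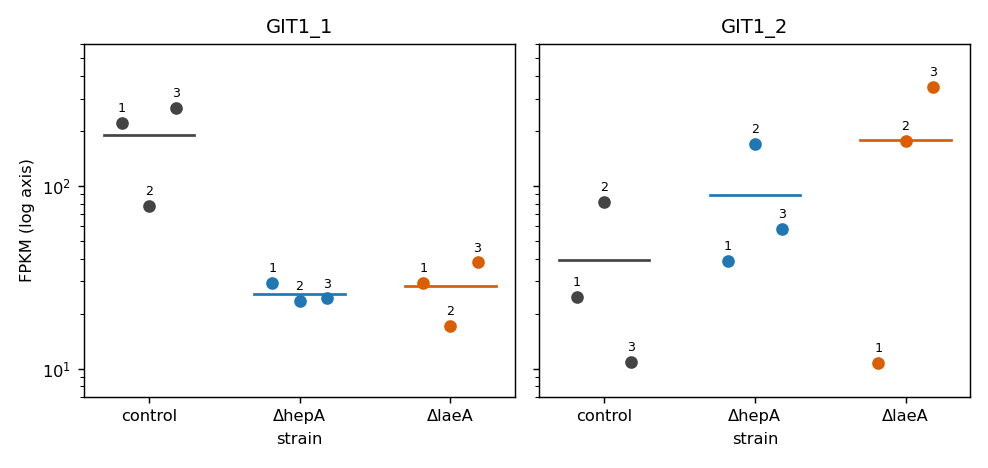
FPKM (log axis) of GIT1_1 and of GIT1_2 in each library by strain; points are libraries with their replicate number and lines are strain means. For GIT1_1 the 6 deletion libraries sit between 17.2 and 38.1 FPKM, below the controls at 77.9 to 269, while for GIT1_2 the 3 strains overlap.

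These levels took GIT1_1 from the upper part of the transcriptome to its middle. Among the 10009 genes that reached 1 FPKM in 3 or more libraries, it stood above 88.8%, 77.2% and 91.3% of genes in the controls. It stood above 53.2% to 57.7% of them in ΔhepA and above 49.5% to 67.5% in ΔlaeA. By the step size above, its lowest value, in ΔlaeA replicate 2, rested on about 54 fragments, and its highest, in control replicate 3, on about 1280. The step varies between genes of this length, which puts the lowest between 48 and 61 fragments. The span was taken as the transcript length of GIT1_1, so any intron would make these counts too high.

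GIT1_1 lies near one end of the listed genes of chromosome 3. It is gene 1632 of 1663 in order, with 31 genes and 71988 bases between it and the end of the last one. It is separated by 1458 bases from the gene before it and by 1412 bases from the gene after it, and both of these are on the same strand. Of the 10 genes on each side, 12 passed the filter on low values and were tested. The other 8 were listed at 0 or at no more than 2.44 FPKM in each library, and they say nothing on the strains. Only 1 of the 20 has a symbol, WWM1_2, named after a yeast WW-domain protein.

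No neighbour passed the test in any of the 3 comparisons. By limma, adjusted over all tested genes, 0 of 12 passed in ΔhepA against the control, where 0.320% of all tested genes did. In ΔlaeA 0 of 12 passed, against 1.09% of all tested genes, and between ΔlaeA and ΔhepA 0 of 12, against 0.050%. Counts of 0 among 12 genes thus lie near the background. At an unadjusted p under 0.05 there were 1, 5 and 4 of the 12, in the same order, where 10.4%, 21.6% and 9.49% of all tested genes lay. The median log2 difference of the 12 was 0.08 in ΔhepA and 0.61 in ΔlaeA, against -0.15 and -0.21 for all tested genes.

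The gene beside GIT1_1 toward lower coordinates, AKAW2_31604A, had the nearest pattern among the neighbours. RefSeq gives it no symbol, so its role is not stated. It stood at 12.5, 3.8 and 11.5 FPKM in control replicates 1 to 3, at 2.61, 1.5 and 2.07 FPKM in ΔhepA, and at 1.56, 2.31 and 0.65 FPKM in ΔlaeA. Each deletion library was below each control, as for GIT1_1, and replicate 2 was again the lowest control. It was the only tested neighbour, 1 of 12, with that arrangement, which 7.08% of all tested genes had.

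The log2 difference of AKAW2_31604A was -1.62 ± 0.456 (SE) in ΔhepA (limma adjusted p = 0.203) and -1.95 ± 0.456 in ΔlaeA (adjusted p = 0.065), so it passed in neither. Without control replicate 2 it was -2.10 in ΔhepA (adjusted p = 0.0583) and -2.43 in ΔlaeA (0.0215). The ΔlaeA difference also passed without ΔlaeA replicate 1 (-2.00, limma adjusted p = 0.0303) and after rescaling to TPM (-1.81, 0.0457). Those fits called 1612 and 211 genes, against 109 in the full fit. GIT1_1 was 17.7 to 23.4 times as high as AKAW2_31604A in the controls, 11.3 to 15.6 times in ΔhepA and 7.44 to 58.7 times in ΔlaeA. The wide last range rests on values of AKAW2_31604A of a few FPKM or less.

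On the other side the values went the opposite way in ΔlaeA. AKAW2_31606A, the next gene toward higher coordinates, stood at 66.6, 92.2 and 93.1 FPKM in the control strain and at 79.0, 111 and 113 FPKM in ΔhepA. In ΔlaeA it stood at 216, 314 and 130 FPKM, above each control and each ΔhepA library. Its log2 difference was 1.31 ± 0.337 (SE) in ΔlaeA (limma adjusted p = 0.0803) and 0.26 ± 0.337 in ΔhepA (adjusted p = 0.833). It passed in ΔlaeA only without ΔlaeA replicate 1 (1.28, limma adjusted p = 0.0473, in the fit with 1612 calls) or without ΔlaeA replicate 3 (1.64, 0.0441).

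Among tested neighbours 3 of 12 were higher in ΔlaeA than in the control with no overlap between the groups, against 8.48% of all tested genes. In ΔhepA 0 of 12 were, against 5.48%. The 3 were AKAW2_31597S, AKAW2_31606A and AKAW2_31611A. AKAW2_31611A stood at 5.52 to 8.79 FPKM in the control strain and at 12.9, 18.2 and 14.0 FPKM in ΔlaeA (log2 difference 0.98, limma adjusted p = 0.143). AKAW2_31597S stood at 2.88 to 7.65 FPKM in the control strain and at 9.16, 20.9 and 32.0 in ΔlaeA (1.56, adjusted p = 0.132).

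The remaining tested neighbours did not pass in the full fit. Of all 12, 7 were higher in ΔhepA and 9 in ΔlaeA, against 3735 and 3731 of the 10009 tested genes. With median-ratio scaling 9 were higher in each, against 5104 and 4837 of the 10009. AKAW2_31610S had the widest spread, at 7.83, 4.76 and 0 FPKM in the control strain and at 6.28, 35.6 and 53.9 FPKM in ΔlaeA (log2 difference 2.72 ± 0.959 SE, limma adjusted p = 0.151). Its high values were in the ΔlaeA libraries that lay apart. WWM1_2 stood at 122.6 to 203 FPKM in the control strain, 86.1 to 177 in ΔhepA and 89.3 to 256 in ΔlaeA, so all 3 strains overlapped. AKAW2_31596A, AKAW2_31598A, AKAW2_31599S, AKAW2_31600S, AKAW2_31607A and AKAW2_31614S had log2 differences between -0.49 and 0.85 in both deletion strains, and their adjusted p was 0.314 or more.

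**Figure D2:**
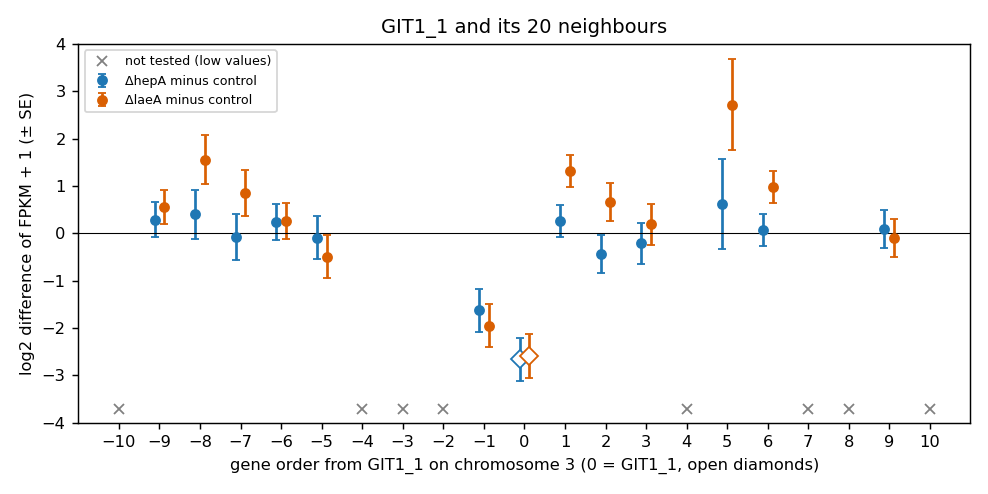
Log2 difference of FPKM + 1 from the control (± SE of the limma fit) for GIT1_1 (open diamonds) and its tested neighbours (filled points), by gene order; crosses mark neighbours with values too low to test. AKAW2_31604A at order -1 lies at -1.62 and -1.95 beside GIT1_1 at -2.66 and -2.59, and the gene on the other side lies at 0.26 and 1.31.

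A second gene carries the same yeast name. GIT1_2 (AKAW2_70509A, chromosome 7, 1349734 to 1351519) did not follow GIT1_1. It stood at 24.6, 81.9 and 10.9 FPKM in control replicates 1 to 3. In ΔhepA it stood at 38.9, 170 and 58.2 FPKM, and in ΔlaeA at 10.8, 176 and 348 FPKM. The strains overlapped, and the 3 highest values were in the 3 libraries that lay apart. Between libraries the gene ranged 32.3-fold.

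The log2 difference of GIT1_2 from the control was 1.33 ± 1.12 (SE) in ΔhepA (limma adjusted p = 0.718) and 1.62 ± 1.12 in ΔlaeA (adjusted p = 0.402). Without the 3 libraries that lay apart it was 0.73 in ΔhepA and -1.32 in ΔlaeA, where 1 library then remained, so its sign in ΔlaeA depended on them. Without ΔlaeA replicate 1, which leaves the libraries that lay apart as the only ones of that strain, it was 3.08 (limma adjusted p = 0.0294). That fit called 1612 genes, against 109 in the full fit.

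The balance between these permease genes therefore differed by library. GIT1_1 was 9.01 and 24.7 times as high as GIT1_2 in control replicates 1 and 3 and 0.95 times as high in control replicate 2. In ΔhepA it was 0.757, 0.138 and 0.416 times as high. In ΔlaeA it was 2.74 times as high in replicate 1 and 0.0978 and 0.109 times in replicates 2 and 3. GIT1_1 was thus the more abundant of the pair in 2 of 3 controls, in 0 of 3 ΔhepA libraries and in 1 of 3 ΔlaeA libraries. Their sum was 160 to 280 FPKM in the control strain, 68.3 to 193 in ΔhepA and 40.4 to 387 in ΔlaeA, so the strains overlapped in the sum.

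Several genes of phosphate use had their highest values in the same libraries as GIT1_2, and they were singled out after their values were seen. Others did not. PHO85_3 had its lowest values there, at 131 FPKM in ΔhepA replicate 2 and at 114 and 90.2 FPKM in ΔlaeA replicates 2 and 3. PHO5_2, named after a secreted acid phosphatase of yeast, stood at 58.9, 220 and 36.5 FPKM in the control strain. It stood at 58.4, 450 and 94.9 FPKM in ΔhepA and at 33.7, 361 and 392 FPKM in ΔlaeA. GDE1, named after the yeast enzyme that splits glycerophosphocholine inside the cell, stood at 24.3, 39.6 and 24.3 FPKM in the control strain, 28.9, 73.8 and 41.9 in ΔhepA, and 30.0, 79.3 and 103 in ΔlaeA. PHO85_2, which shares its name with a yeast cyclin-dependent kinase of phosphate signalling, was at 13.3, 85.4 and 31.8 FPKM in the control strain. It was at 38.8, 111 and 43.7 FPKM in ΔhepA and 34.9, 99.2 and 210 in ΔlaeA.

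In PHO5_2, GDE1, PHO85_2 and GIT1_2, control replicate 2, ΔhepA replicate 2 and ΔlaeA replicate 3 were the highest of their strain. The genes were singled out for this order. Over the 4 lists described next, 5 of 44 tested genes had this order, PHO85_1 and PLB1_1 being the other members, and the rest did not, against 3.91% of all tested genes. None passed between strains: the limma adjusted p in ΔlaeA was 0.527 for PHO5_2, 0.216 for GDE1 and 0.28 for PHO85_2. Without ΔlaeA replicate 1 GDE1 passed (1.63, adjusted p = 0.0278), in the fit with 1612 calls. Without the 3 libraries that lay apart the log2 difference in ΔlaeA was -1.19 for PHO5_2 and 0.06 for GDE1. Mitochondrial share was high in the same 3 libraries; its part in these values was not tested.

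**Figure D3:**
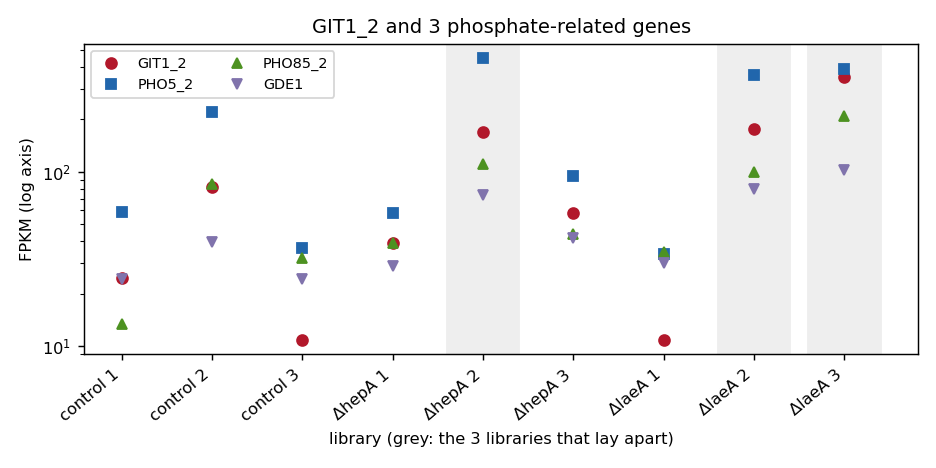
FPKM (log axis) of GIT1_2, PHO5_2, PHO85_2 and GDE1 in each of the 9 libraries; grey bands mark the 3 libraries that lay apart. Each gene is high in those 3 and, among controls, highest in replicate 2, where PHO5_2 stood at 220 FPKM against 58.9 and 36.5 in the other controls.

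The rest of the pathway was read from 4 lists of symbols with yeast-style names, 48 distinct genes in all, of which 44 were tested. By limma 0 of the 44 passed in each comparison, where 0.320%, 1.09% and 0.050% of all tested genes did, so counts of 0 lie near the background. At an unadjusted p under 0.05 there were 1 in ΔhepA, 10 in ΔlaeA and 4 between the deletion strains, against 10.4%, 21.6% and 9.49% of all tested genes, so the ΔlaeA count and the count between the deletion strains lay near the background. The smallest limma adjusted p was 0.221, 0.0648 and 0.451. Counts of higher and lower members below are descriptions on the deposited scale. On it 6273 of the 10009 tested genes were lower in ΔhepA and 6277 in ΔlaeA. The counts shifted with scaling, as did the median of all tested genes. That median was -0.15 in ΔhepA and -0.21 in ΔlaeA, and 0.01 and -0.02 with median-ratio scaling.

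Phosphate uptake and signalling had 14 members, all tested. In ΔhepA 8 were lower and 6 higher (median log2 difference -0.02), and in ΔlaeA 9 were lower and 5 higher (median -0.28). With median-ratio scaling 5 and 8 were lower. PHO91 and VTC2 were singled out after their values were seen. PHO91, named after a yeast phosphate transporter, stood at 9.69, 4.18 and 5.83 FPKM in the control strain, 5.45, 2.72 and 3.44 in ΔhepA and 3.34, 2.31 and 1.63 in ΔlaeA (log2 difference -1.11 in ΔlaeA, limma adjusted p = 0.151). VTC2, a subunit gene of the complex that makes vacuolar polyphosphate in yeast, stood at 18.4 to 25.6 FPKM in the control strain, 13.3 to 29.8 in ΔhepA and 9.51 to 11.98 in ΔlaeA (-0.98, adjusted p = 0.147). PHO85_3 was at 166 ± 34.0 FPKM in the control, 164 ± 33.5 in ΔhepA and 120 ± 32.9 in ΔlaeA (SD, n = 3). vip1 was the most abundant member, at 1052 ± 189 FPKM in the control and 692 ± 184 in ΔlaeA (limma adjusted p = 0.228). Its symbol denotes an inositol pyrophosphate kinase in budding yeast and an RNA-binding protein in fission yeast, so its place in this list and in the inositol list is uncertain.

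The list for phospholipid deacylation and glycerophosphodiester breakdown had 13 members, 11 of them tested. It also holds genes of glycerol 3-phosphate, such as GUT2 and GPD1_2. Its counts therefore do not describe only genes that act on the compounds a Git1 permease takes up. In ΔhepA 8 were higher (median log2 difference 0.20) and in ΔlaeA 6 (median 0.07; 4 after rescaling to TPM and 9 with median-ratio scaling). PLB1_1, a phospholipase B gene, was abundant in each strain, at 328, 919 and 494 FPKM in the control strain, 794, 891 and 651 in ΔhepA, and 465, 584 and 681 in ΔlaeA. The strains overlapped (limma adjusted p = 0.624 and 0.883). GUT2, the mitochondrial glycerol-3-phosphate dehydrogenase gene, was at 340 ± 76.6, 404 ± 168 and 487 ± 127 FPKM (SD, n = 3 each) in control, ΔhepA and ΔlaeA.

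GPD1_2, a gene of the cytosolic glycerol-3-phosphate dehydrogenase, came nearest to the threshold among the 44. It stood at 98.4, 127 and 125 FPKM in the control strain, 187, 164 and 180 in ΔhepA, and 252, 397 and 200 in ΔlaeA. Each deletion library lay above each control, the reverse of GIT1_1. Taken strain by strain, 5.48% of all tested genes lay so in ΔhepA and 8.48% in ΔlaeA. The log2 difference of GPD1_2 was 0.60 ± 0.282 (SE) in ΔhepA (limma adjusted p = 0.491) and 1.22 ± 0.282 in ΔlaeA (0.0648). It passed in ΔlaeA with median-ratio scaling (1.43, limma adjusted p = 0.0449) and without ΔlaeA replicate 3 (1.44, 0.0472). It also passed without ΔlaeA replicate 1 (1.27, 0.0276), in the fit with 1612 calls.

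Inositol genes had 14 members, 12 of them tested. In ΔlaeA 11 of 12 were lower (median log2 difference -0.44) and in ΔhepA 7 (median -0.16). Of all tested genes 6277 of 10009 were lower in ΔlaeA. With median-ratio scaling 11 of 12 were lower in ΔlaeA and 5 in ΔhepA, and after rescaling to TPM 11 were lower in ΔlaeA. Without the libraries that lay apart, which leaves 1 ΔlaeA library, 4 of 12 were lower in ΔlaeA. INO1, which makes inositol phosphate from glucose 6-phosphate, was at 454 ± 99.8 FPKM in the control, 461 ± 130 in ΔhepA and 400 ± 261 in ΔlaeA (SD, n = 3), so the strains overlapped. The inositol transporter genes of the list were named with their values seen. ITR2_1 and ITR2_3 stood at 0 to 0.31 FPKM in each library and were not tested. ITR2_2 stood at 2.53, 1.33 and 1.27 FPKM in the control strain, 2.45, 5.32 and 3.31 in ΔhepA and 3.74, 6.42 and 2.99 in ΔlaeA (limma adjusted p = 0.517 and 0.185).

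One inositol gene, singled out after its values were seen, was low in the same 6 libraries as GIT1_1. INP52, named after a yeast phosphoinositide phosphatase, stood at 13.7, 10.2 and 11.6 FPKM in the control strain, 5.55, 3.49 and 5.21 in ΔhepA and 7.58, 3.79 and 4.56 in ΔlaeA. The groups did not overlap, an arrangement that 7.08% of all tested genes had. The limma adjusted p of INP52 was 0.221 in ΔhepA (log2 difference -1.17) and 0.129 in ΔlaeA (-1.06). It passed in ΔlaeA only without ΔlaeA replicate 1 (-1.30, limma adjusted p = 0.0284), in the fit with 1612 calls. LSB6, a phosphatidylinositol kinase gene, was at 13.1 ± 0.922, 15.1 ± 1.78 and 10.2 ± 5.60 FPKM (SD, n = 3) in control, ΔhepA and ΔlaeA.

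Glycerophospholipid synthesis had 8 members, all tested. In ΔhepA 6 were lower and 2 higher (median log2 difference -0.12), and in ΔlaeA 5 were lower (median -0.11); with median-ratio scaling 4 and 3 were lower. PSD1, a phosphatidylserine decarboxylase gene, was at 279 ± 52.3 FPKM in the control, 272 ± 59.1 in ΔhepA and 367 ± 33.7 in ΔlaeA (SD, n = 3). CHO1, for phosphatidylserine synthase, was at 145 ± 45.4, 124 ± 15.3 and 106 ± 19.98 FPKM, and PGS1, for phosphatidylglycerolphosphate synthase, at 58.7 ± 10.6, 63.3 ± 10.5 and 59.4 ± 14.5 FPKM, in the same order.

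Other plasma membrane permeases and sensors of nutrients gave a list of 19 genes, 14 of them tested. In ΔhepA 11 of 14 were lower (median log2 difference -0.53), as were 6273 of the 10009 tested genes, and in ΔlaeA 6277 of the 10009 were. By limma 0 of 14 passed in ΔhepA, against 0.320% of all tested genes. At an unadjusted p under 0.05 there were 4 of 14 in ΔhepA, 8 in ΔlaeA and 5 between the deletion strains, against 10.4%, 21.6% and 9.49% of all tested genes. In ΔlaeA 9 of 14 were lower (median -0.60), and 1 of 14 fell past the threshold, against 0.919% of all tested genes. Without the 3 libraries that lay apart, which leaves 1 ΔlaeA library, 7 were lower and 7 higher in ΔlaeA (median -0.06). The gene that fell was UGA4_1, named after a yeast permease for 4-aminobutyrate. It stood at 16.8, 22.1 and 18.8 FPKM in the control strain, 7.86, 4.91 and 7.37 in ΔhepA and 5.97, 2.82 and 1.79 in ΔlaeA (log2 difference -2.26 ± 0.383 SE in ΔlaeA, limma adjusted p = 0.0201).

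The UGA4_1 call was lost without control replicate 1 (limma adjusted p = 0.0712), without control replicate 3 (0.0727) and without ΔlaeA replicate 2 (0.11). It was lost too with no filter (0.077), in a fit on the compared groups alone (0.0583) and without the 3 libraries that lay apart (-1.53, 0.248). Its controls had no low replicate 2, unlike those of GIT1_1. In the list 7 of 14 had control replicate 2 as the lowest control, against 44.2% of all tested genes.

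Permease genes whose values in both deletion strains lay low, as those of GIT1_1 did, were singled out after their values were seen. SUL2_3, named after a yeast sulfate permease, stood at 5.94, 3.43 and 7.65 FPKM in the control strain, 0.61, 1.31 and 1.02 in ΔhepA, and 2.22, 1.80 and 1.05 in ΔlaeA. The groups did not overlap, as in 7.08% of all tested genes (limma adjusted p = 0.0998 in ΔhepA and 0.104 in ΔlaeA). Without ΔlaeA replicate 1 the limma adjusted p in ΔlaeA was 0.0406, in the fit with 1612 calls. GAP1, the general amino acid permease gene, stood at 109, 28.4 and 57.7 FPKM in the control strain, at 20.7, 11.5 and 24.9 in ΔhepA and at 39.0, 24.4 and 12.9 in ΔlaeA. Its ΔlaeA libraries overlapped the controls (limma adjusted p = 0.207, and 0.304 in ΔhepA).

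AMT1, an ammonium permease gene on the same chromosome as GIT1_1, stood at 104, 6.24 and 77.9 FPKM in the control strain, so its control replicate 2 was at the level of the deletion strains. In ΔhepA it was at 5.09, 2.93 and 6.40 FPKM and in ΔlaeA at 5.22, 12.5 and 6.36 FPKM. Its limma adjusted p was 0.231 and 0.169, and without control replicate 2 it was 0.00398 and 0.00683. Among the most abundant permease genes, ZRT1_3 had higher means in both deletion strains, while HXT1 and RGT2 had lower ones. None of these passed in the full fit. ZRT1_3 is named after a yeast zinc transporter. It was at 1470 ± 382 FPKM in the control, 1987 ± 754 in ΔhepA and 5130 ± 2666 in ΔlaeA (SD, n = 3). Its limma adjusted p in ΔlaeA was 0.0733, and 0.0116 without ΔlaeA replicate 1, in the fit with 1612 calls. HXT1, a hexose transporter gene, was at 413 ± 38.7, 258 ± 19.7 and 325 ± 135 FPKM. RGT2, named after a yeast glucose sensor, was at 163 ± 108, 110 ± 20.8 and 51.2 ± 33.8 FPKM, in the same order.

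**Figure D4:**
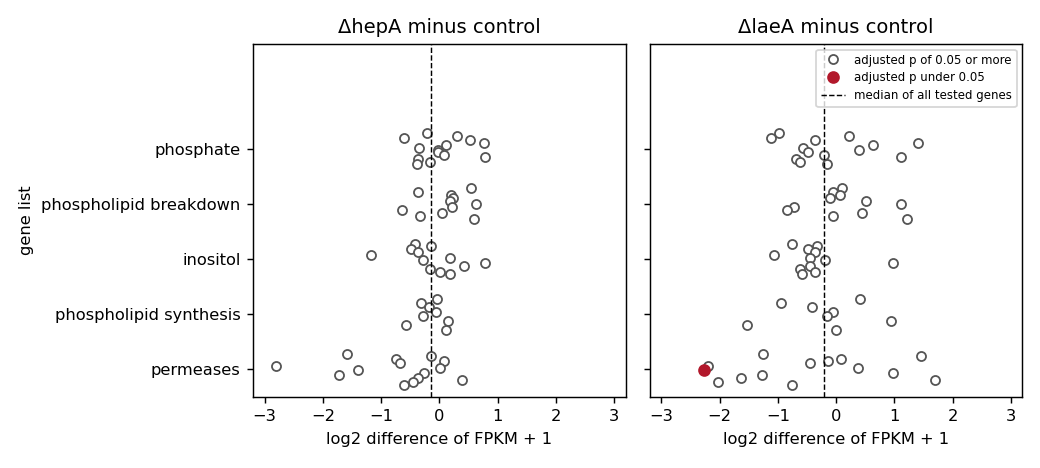
Log2 difference of FPKM + 1 from the control for each tested member of 5 gene lists, with ΔhepA on the left and ΔlaeA on the right; the dashed line is the median of all tested genes (-0.15 and -0.21) and GIT1_1 itself is left out. One point is filled, UGA4_1 in ΔlaeA at -2.26, which was the only member past the limma threshold.

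The genes most like GIT1_1 were ranked by Pearson's r of log2(FPKM + 1) over the 9 libraries, among the other 10008 tested genes. This r describes shape and not size, and its points share strains and controls, so it is given as a measure of likeness with no p. The nearest 10 had r of 0.95 to 0.98. None of the 10 has a symbol, and they lie on 7 chromosomes. All were highest in control replicates 1 and 3. In 9 of the 10 each deletion library lay below each control, as in 7.08% of all tested genes. The ranking selects for this shape, so it is no separate finding.

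AKAW2_30554S (chromosome 3, 1627458 to 1629169) was first, with r = 0.98. It stood at 1860, 429 and 1551 FPKM in the control strain, 114, 77 and 98.1 in ΔhepA and 101, 118 and 144 in ΔlaeA. It was thus higher than GIT1_1 in every library, with the same low control replicate 2. AKAW2_60161S stood at 246, 97.1 and 204 FPKM in the control strain, 46.2 to 52.0 in ΔhepA and 38.4 to 46.5 in ΔlaeA. AKAW2_20544A had the deepest drop in control replicate 2, at 291, 15.1 and 320 FPKM in the control strain and 5.03 to 9.43 FPKM in the 6 deletion libraries.

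Low genes were among the 10 too. AKAW2_81008A stood at 3.51, 1.95 and 4.63 FPKM in the control strain and was listed at 0 in all 6 deletion libraries. AKAW2_81320A stood at 2.58 to 11.5 FPKM in the control strain and at 0 to 1.12 FPKM in the deletion libraries. AKAW2_41036S was at 9.0 to 17.96 FPKM in the control strain and 3.11 to 5.40 FPKM in the deletion libraries. The other 4 to share the shape with smaller differences, AKAW2_60100S, AKAW2_51363S, AKAW2_41113A and AKAW2_11955A, had log2 differences of -1.66 to -0.56.

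In all, 62 genes had r above 0.9, 13 of them with a symbol; those named next were chosen after their values were seen. ARP4, for an actin-related protein of chromatin remodelling complexes, stood at 39.8, 30.6 and 36.6 FPKM in the control strain and 18.6 to 27.5 FPKM in the deletion libraries (r = 0.94). RFC5, for a subunit of the clamp loader of DNA replication, stood at 54.2, 33.0 and 46.5 FPKM in the control strain and 9.10 to 24.1 in the deletion libraries (r = 0.94). YHM2, a mitochondrial citrate carrier gene, stood at 660, 383 and 555 FPKM in the control strain, 248 to 329 in ΔhepA and 208 to 284 in ΔlaeA (r = 0.91). AKAW2_31604A, the neighbour of GIT1_1, ranked 113th with r = 0.88, and GIT1_2 had r = -0.54.

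**Figure D5:**
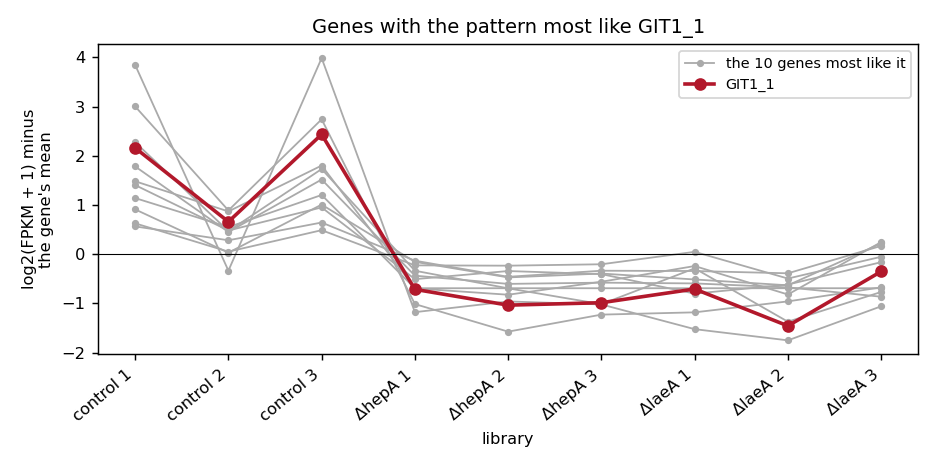
Log2(FPKM + 1) minus the gene's own mean over the 9 libraries, for GIT1_1 (red) and the 10 genes with the highest r (grey). All are highest in control replicates 1 and 3, take lower values in control replicate 2 and are low in the 6 deletion libraries, the shape by which they were chosen.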

How the data were processed

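The authors deposited 1 table of FPKM values per gene from RSEM, 1 column per library, as its name states. RSEM 1.3.1, featureCounts 2.0.1, STAR 2.7.9a, Trimmomatic 0.39, FastQC 0.11.9, cutadapt 3.7 and Trim Galore 0.6.7 are listed, without roles, per the submitters' processing notes; a build was not given in the sources used here. FPKM depends on each library's mapped total, so a few abundant transcripts lower the rest. All 12941 genes matched RefSeq's table; start and end were equal in 12936.

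The 10009 genes that reached 1 FPKM in 3 or more libraries were fitted as log2(FPKM + 1) by limma 3.58.1 (R 4.3.3), with group means over 9 libraries and a mean trend. Fold changes on that scale are smaller than the true ones for low genes. Two-sided p-values were Benjamini-Hochberg adjusted over all tested genes, with a threshold of 0.05. The fit was tested on simulated data in which noise was drawn independently for each gene and library. That test does not cover deviations that many genes share within a library. Fragment steps came from genes whose listed transcript length was within 50 bases of the span of GIT1_1. Tables and plots used Python 3.11.15, numpy 2.4.6, pandas 2.3.3 and matplotlib 3.10.9.

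GIT1_1, the gene lists and tests were chosen with earlier results of these data known. Named genes are the 10 neighbours on each side, GIT1_2, called and the 3 most abundant members of each list, and the 10 genes most like GIT1_1; others are marked. Alternatives were pseudocounts of 0.1 and 5, other filters and scalings, a fit on 2 groups, no trend, the replicate number as a block, and libraries left out.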

Additional observations from a re-analysis of the deposited data

How the results depend on the processing

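GIT1_1 kept its direction against the control, and moved by less than 1 SD between replicates, in each of the 17 alternatives per comparison. Its log2 difference lay between -3.21 and -2.32 in ΔhepA and between -3.14 and -2.25 in ΔlaeA with 1 library left out, and between -2.70 and -2.49, and -2.68 and -2.38, in the 11 others. Its difference between the deletion strains changed sign (-0.17 to 0.38). Called neighbours in ΔlaeA numbered 1 after rescaling to TPM, where 211 genes were called in all, and 0 to 4 with 1 library left out. Called members of the 4 pathway lists in ΔlaeA numbered 1 with median-ratio scaling, where 142 genes were called in all. They numbered 0 to 8 with 1 library left out. The counts of 4 and 8, like that of 5 permeases below, came from the fit without ΔlaeA replicate 1, which called 1612 genes. Called permeases in ΔlaeA numbered 0 with no filter, in the fit on 2 groups and without the 3 libraries that lay apart, 2 with quantile normalization, and 0 to 5 with 1 library left out; in ΔhepA and between the deletion strains they numbered 0 to 1. With the replicate number as a block 2 permeases were called in ΔlaeA, UGA4_1 and ZRT1_3 (limma adjusted p = 0.0351 and 0.0416). Same-numbered libraries showed no steady pattern of deviating together: between ΔhepA and ΔlaeA the correlations were 0.42, 0.29 and -0.22 for replicates 1 to 3, and with the control they were -0.18 to 0.17. The numbers are therefore not read as pairs. Calls over all genes depended most on libraries: 5 to 54 in ΔhepA (32 in the full fit), 21 to 1612 in ΔlaeA (109) and 1 to 269 between the deletion strains (5) with 1 library left out. They were 6 to 38, 9 to 211 and 0 to 7 in the other alternatives. The cause was not tested. Depth limits the low genes, such as AKAW2_31604A, most in ΔlaeA replicates 2 and 3.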
